A study of Mus musculus with 8 samples.

Results

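The 10 genes described here belong to the mitochondrial stress response of mouse cells: the secreted signals Fgf21 and Gdf15, the transcription factor gene Atf5, the matrix proteases Lonp1 and Clpp, the inner membrane proteases Oma1 and Afg3l2, and the chaperones Hspd1, Hspe1 and Hspa9. They were chosen by name, with earlier results of these data known but no measured value in the rule, because doxycycline, the inducer in this study, can inhibit mitochondrial translation. All 10 were found by Ensembl identifier among the 47069 gene rows of the count tables. The study measured RNA in MLL-AF9 acute myeloid leukaemia cells, a mouse leukaemia driven by an MLL fusion oncogene, that carried a TetO-Klf4 transgene, a Klf4 copy switched on by doxycycline. GFP-positive cells were sorted from mice with leukaemia, and the samples are labelled bone marrow, strain C57BL/7. There were 4 groups, labelled 0h, 6h, 12h and 24h, with 2 libraries each. The transgene, the fusion oncogene and the sort are common to all 8 libraries, and the sources used here give neither the number of mice nor whether cells of several mice were pooled, so p-values measure the spread between libraries. The labels set the libraries apart by time alone, without the event from which the hours run, so that doxycycline exposure, Klf4 induction and time cannot be told apart.

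Mitochondria import most of their proteins unfolded. In the matrix, HSPA9 (mortalin) pulls them in, HSPD1 and its lid HSPE1 fold them, and LONP1 and CLPP degrade those that fail. In the inner membrane, AFG3L2 forms the matrix-facing m-AAA protease, and OMA1 is activated by loss of membrane potential. In mammalian cells activated OMA1 cleaves DELE1, which passes the signal to the cytosolic eIF2 kinase HRI and on to the transcription factor ATF4. ATF5 is a related factor translated under the same stress, and FGF21 and GDF15 are hormones, called mitokines, that stressed cells can release.

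Stretches of 3 promoters are shown because each holds the letters of a binding motif that bears on these genes: the C/EBP-ATF response element of ATF4 targets, the heat shock element of chaperone genes, and a GC-rich element of KLF factors. The capitals mark the motif letters. Sequences are from RefSeq, build GRCm38.p6, and are written in the direction of transcription (for the shared chaperone promoter, that of Hspe1).
Fgf21 at chr7:45615582-45615669, minus strand: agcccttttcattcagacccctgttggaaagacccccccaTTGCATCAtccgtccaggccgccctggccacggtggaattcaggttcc
Hspd1 and Hspe1 at chr1:55088029-55088106, plus strand: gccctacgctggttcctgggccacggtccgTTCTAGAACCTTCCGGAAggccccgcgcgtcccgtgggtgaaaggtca
Lonp1 at chr17:56626985-56627107, minus strand: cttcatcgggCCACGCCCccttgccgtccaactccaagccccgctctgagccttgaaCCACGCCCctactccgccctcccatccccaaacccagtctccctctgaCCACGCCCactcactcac

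The windows searched ran from 250 bases before to 50 bases after each RefSeq start site, on both strands, and 8 of the 10 genes had 11 windows. The C/EBP-ATF letters TGATGNAA were in 3.97% of all 32851 promoter windows, and among these genes in that of Fgf21 alone, 139 bases before its start site. The KLF letters GGGNGTGG were in 17.6% of all windows. The Lonp1 window held 3 copies and 1 of the Gdf15 windows held 1. The heat shock motif, GAA then TTC then GAA with 2 free bases between each, was in 0.603% of all windows. Of the 2 Hspd1 start sites, 1 lies 215 bases from that of Hspe1 on the opposite strand. The stretch between these held 2 matches that overlap each other. The window of the other Hspd1 start site, chr1:55088194-55088493, held no heat shock match. No motif of these was in the windows of Atf5, Clpp or Oma1, which says only that the letters were not there. A match of letters is a description and not a measured binding site.

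The deposited values are raw counts per gene, between 20394546 and 26041347 per library. Levels are given in CPM, counts per 1000000 gene counts of the library, with library sizes adjusted by TMM scaling. At this depth 3 counts correspond to 0.115 to 0.147 per 1000000 gene counts before that scaling. Klf4 stood at 2.71 and 4.42 CPM at 0h, 152 and 151 CPM at 6h, 115 and 111 CPM at 12h, and 76.9 and 78.8 CPM at 24h, so every later library had more Klf4 RNA than every 0h library. The 7 leukaemia and myeloid progenitor markers, among them Hoxa9 and Meis1, were all detected and summed to 1336 to 1338 CPM at 24h, against 1304 to 1333 CPM at 0h. Within this sum Meis1, Kit and Spi1 averaged lower at 24h than at 0h, and Hoxa9, Ptprc, Itgam and Mpo higher. Meis1 averaged 105 CPM at 24h, against 125 CPM at 0h, and Hoxa9 449 CPM, against 413 CPM. Of the 4 T cell markers 2 had no count in any library, as did 3 of the 4 B cell markers. Mature neutrophil markers summed to 106 CPM in both 24h libraries, against 70.7 and 75.6 CPM at 0h. Megakaryocyte markers, mostly Itga2b and Ppbp, summed to 7.95 to 8.88 CPM at 24h, against 13.3 to 13.4 CPM at 0h. Macrophage markers summed to 39.2 to 42.9 CPM at 24h, against 64.1 to 69.1 CPM at 0h, but nearly all of this was Adgre1. It averaged 40.9 CPM at 24h, against 66.5 CPM at 0h. C1qa had no count in any library. Vsig4 and Mrc1 averaged 0.0568 and 0.158 CPM at 24h, against 0 and 0.0963 CPM at 0h. Reads assigned to no feature made up 9.15% ± 0.167 of the counted reads at 24h, against 5.47% ± 0.316 at 0h (SD, n = 2 each). These shifts went with time, and their part in the results below was not tested. In bulk RNA, fewer cells of a type and less RNA per cell cannot be told apart.

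The 10 genes did not move as a block. By 24h, Atf5 and Gdf15 had risen, both subunit genes of the chaperonin had fallen, Hspa9 was 1.10-fold higher, and of the proteases Clpp, Oma1 and Afg3l2 were lower by at most 0.21 on the log2 scale. Differences were tested with edgeR's quasi-likelihood F test on all 8 libraries, with p-values adjusted by the Benjamini-Hochberg method over all 14263 genes that passed a filter on low counts, and a gene was called at an adjusted p under 0.05. Fgf21 was too low for the filter, so 9 of the 10 genes were tested. At 6h against 0h, 3 of the 9 were called, 1 higher and 2 lower, beside 18.3% of all tested genes (9.74% higher, 8.58% lower). At 12h, 6 were called, 1 higher and 5 lower, beside 43.7% of all tested genes (22.1% higher, 21.6% lower). At 24h, 8 were called, 3 higher and 5 lower, beside 50.9% of all tested genes (26.1% higher, 24.8% lower). Of the 3 higher, Gdf15 passed the filter through its 24h libraries alone, so its call adds no weight to this count. Of the calls among all genes at 24h, 51.3% were higher. This share depends on scaling and was 62.8% with library totals and 41.8% with GC content and gene length fitted and the mean gene centred. The median log2 fold change of the 9 genes at 24h was −0.12, and that of all tested genes was 0.017. With 9 genes, these shares describe the set and no more.

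**Figure D1:**
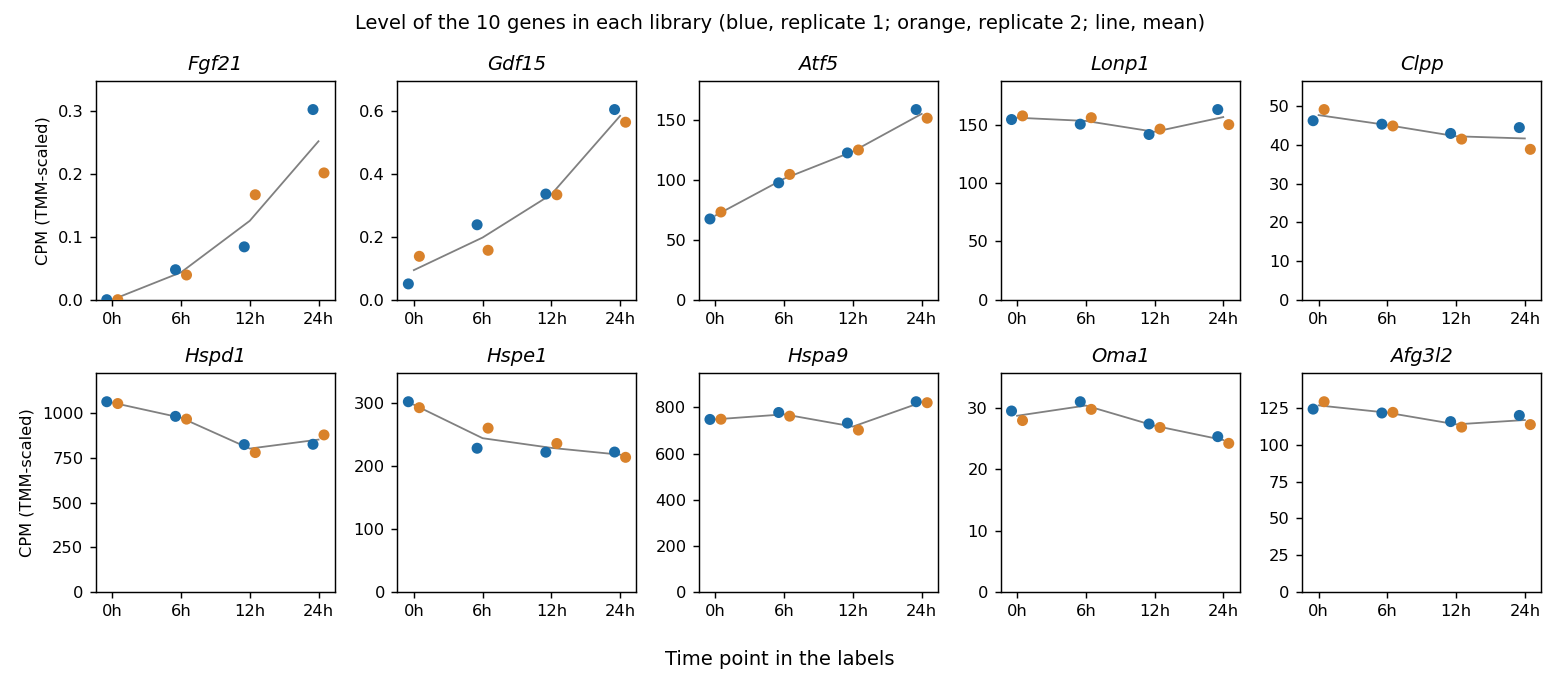
Level of each of the 10 genes in TMM-scaled CPM (linear axes from 0) in the 8 libraries by time point, with 1 dot per library and a line through the mean of the 2 libraries of a time. Atf5 climbs at every step, Hspd1 and Hspe1 lie below their 0h libraries at every later time, and Fgf21 and Gdf15 stay under 1 CPM.

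Fgf21 and Gdf15, the mitokines, were barely detected. Fgf21 (ENSMUSG00000030827, chromosome 7, 45613886 to 45615490, minus strand, build mm10), a hormone made chiefly by liver, had no count in either 0h library, 1 in each 6h library, 2 and 4 in those of 12h, and 8 and 5 in those of 24h. Its level was 0 CPM in both 0h libraries, 0.0477 and 0.0393 CPM at 6h, 0.0841 and 0.167 CPM at 12h, and 0.303 and 0.202 CPM at 24h. The 24h libraries were the highest and no library of a later time was at 0. Against a floor of 3 counts over the 0h libraries together, the Fgf21 counts were 3.52-fold higher at 24h and 1.74-fold higher at 12h. These ratios leave out the counting error of the later libraries. Against the 0 counts seen at 0h, the exact 95% interval of the ratio began at 2.48 at 24h and at 1.03 at 12h. No fold is given at 6h, where both groups lay under the floor. The 13 counts at 24h correspond to 0.254 CPM over both libraries, with an exact 95% interval of 0.135 to 0.434, which covers counting error only. When the filter on low counts was dropped, so that 25359 genes were tested, Fgf21 had an edgeR adjusted p of 0.65 at 6h, 0.12 at 12h and 0.016 at 24h.

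Gdf15 (ENSMUSG00000038508, chromosome 8, 70629393 to 70632456, minus strand), a stress cytokine of the TGF-beta superfamily, had 1 and 3 counts in the 0h libraries, 5 and 4 in those of 6h, 8 in each of 12h, and 16 and 14 in those of 24h. These counts correspond to 0.0503 and 0.138 CPM at 0h, 0.239 and 0.157 CPM at 6h, 0.337 and 0.334 CPM at 12h, and 0.606 and 0.565 CPM at 24h. No later library fell into the 0h range. Gdf15 rose at 24h, with 30 counts against 4 at 0h, a ratio of depth-scaled counts of 6.10 with an exact 95% interval of 2.15 to 23.8. Its fitted log2 fold change was 2.54 ± 0.67 (SE; adjusted p = 0.0016). At 12h the ratio was 3.49, with an interval of 1.13 to 14.3, and Gdf15 was not called (adjusted p = 0.058). The ratio at 6h was 2.02, with an interval of 0.564 to 8.97 (adjusted p = 0.48). These intervals cover counting error only and not the spread between libraries. The gene passed the filter through its 24h libraries alone, so its call carries no weight beyond these counts. Without replicate 2 of 0h its log2 fold change at 24h was 3.41, and without replicate 1 of 0h it was 2.04, with adjusted p-values of 0.010 and 0.045.

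Of 8 genes for receptors and co-receptors of these hormones, 3 passed the filter. Gfral, the GDF15 receptor, had no count in any library, nor had Fgfr4 and Kl, while Klb, the FGF21 co-receptor, and Fgfr2 were too low to test. Ret, the signalling partner of GFRAL, averaged 0.389, 1.23, 2.93 and 3.80 CPM over the 4 times from 0h to 24h, with a log2 fold change of 3.29 at 24h against 0h (adjusted p = 3.7e-11). Fgfr3 had 26 and 24 counts at 24h, against 1 and 2 counts at 0h. The ratio of its depth-scaled counts was 13.6, with an exact 95% interval of 4.38 to 67.9 for counting error only. Ret had 10 and 6 counts in the 0h libraries and 110 and 85 in those of 24h. Like Gdf15, Ret, Fgfr3 and Fgfr1 passed the filter only with the help of later libraries. The calls of Ret and Fgfr3, at an adjusted p of 7.2e-06 for Fgfr3, carry no weight beyond these counts. Fgfr1, the receptor that FGF21 uses with KLB, had a log2 fold change of 1.26 at 24h and was not called (adjusted p = 0.11).

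Atf5 (ENSMUSG00000038539, chromosome 7, 44812256 to 44816658, minus strand) was the gene of the set with the smallest adjusted p at each later time against 0h. Its level was 67.5 and 73.4 CPM at 0h, 97.8 and 105 CPM at 6h, 123 and 125 CPM at 12h, and 159 and 152 CPM at 24h. Each time lay wholly above the one before it. Atf5 rose by 0.52 ± 0.05 on the log2 scale at 6h (SE; adjusted p = 5.8e-10), by 0.81 ± 0.05 at 12h (adjusted p = 9.9e-16) and by 1.14 ± 0.05 at 24h (adjusted p = 1.3e-20), which is 2.21-fold. It rose again between the later times, by 0.29 ± 0.05 at 12h against 6h (adjusted p = 3.8e-05) and by 0.33 ± 0.05 at 24h against 12h (adjusted p = 6.7e-06). Atf5 shares 82 exonic bases with genes on the opposite strand, Nup62 and Il4i1, and the sources used here do not say whether strand was used in counting.

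Hspd1 (ENSMUSG00000025980, chromosome 1, 55077835 to 55088243, minus strand), the barrel subunit HSP60 of the matrix chaperonin, was the most abundant of the 10. It stood at 1066 and 1056 CPM at 0h, 984 and 968 CPM at 6h, 826 and 781 CPM at 12h, and 827 and 880 CPM at 24h. The 12h and 24h libraries all lay below those of 0h and 6h. Hspd1 fell by 0.40 ± 0.04 on the log2 scale at 12h (SE; adjusted p = 6.1e-10) and by 0.31 ± 0.04 at 24h (adjusted p = 7.2e-08). The drop of 0.28 ± 0.04 at 12h against 6h was also called (adjusted p = 5.2e-06). At 6h against 0h Hspd1 fell by 0.12 ± 0.04 (adjusted p = 0.039), and this call was lost in 11 of 17 alternative fits, among them those without either 0h library (adjusted p = 0.18 and 0.14).

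Hspe1 (ENSMUSG00000073676, chromosome 1, 55088132 to 55091307, plus strand), the co-chaperonin HSP10, stands head to head with Hspd1. The promoter printed above lies between the start of Hspe1 and 1 of the 2 Hspd1 start sites. Its level was 303 and 293 CPM at 0h, 229 and 261 CPM at 6h, 222 and 236 CPM at 12h, and 223 and 214 CPM at 24h. All 6 later libraries lay below both 0h libraries. Hspe1 fell by 0.28 ± 0.05 on the log2 scale at 6h (SE; adjusted p = 2.5e-05), by 0.38 ± 0.05 at 12h (adjusted p = 3.9e-08) and by 0.45 ± 0.05 at 24h (adjusted p = 5.7e-10). No step after 6h was called, with adjusted p-values of 0.16 at 12h against 6h and 0.45 at 24h against 12h. When GC content and gene length were fitted with the overall level kept, the 24h log2 fold changes shrank to −0.13 for Hspd1 and −0.18 for Hspe1, both still called. The exons of Hspd1 and Hspe1 overlap by 112 bases. Pseudogenes named after these genes drew 485 counts for Hspd1 and 61 for Hspe1 over the 8 libraries together, so some reads may be split with copies. Pseudogenes under other names were not looked for.

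Hspa9 (ENSMUSG00000024359, chromosome 18, 34937414 to 34954357, minus strand), the matrix HSP70 that drives import, did not follow the chaperonin. It stood at 748 and 749 CPM at 0h, 778 and 762 CPM at 6h, 732 and 702 CPM at 12h, and 825 and 820 CPM at 24h. The 12h libraries were the lowest and the 24h libraries the highest. Hspa9 rose by 0.14 ± 0.04 on the log2 scale at 24h against 0h (SE; adjusted p = 0.0043), which is 1.10-fold, and by 0.20 ± 0.04 at 24h against 12h (adjusted p = 0.0010). It was not called at 6h (log2 fold change 0.04, adjusted p = 0.54) or at 12h (−0.06, adjusted p = 0.22). Without replicate 2 of 12h the rise at 24h against 12h was not called (adjusted p = 0.081).

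Because exon length is fixed, the ratio of a pair of genes per kilobase follows their balance within a library without regard to depth. The ratio of Hspa9 to Hspd1 was 0.430 and 0.435 in the 0h libraries, 0.485 and 0.482 in those of 6h, 0.543 and 0.551 in those of 12h, and 0.611 and 0.571 in those of 24h, so each time lay above the one before. The ratio of Hspd1 to Hspe1 was 1.96 and 2.01 in the 0h libraries, 2.40 and 2.07 in those of 6h, 2.07 and 1.85 in those of 12h, and 2.07 and 2.29 in those of 24h. The 12h libraries lay on either side of the 0h ones. For the matrix proteases, the ratio of Lonp1 to Clpp was 1.03 and 1.08 at 24h, against 0.935 and 0.898 at 0h. These ratios were not tested. A ratio within a library shows that the genes changed unequally and not which of them moved.

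**Figure D2:**
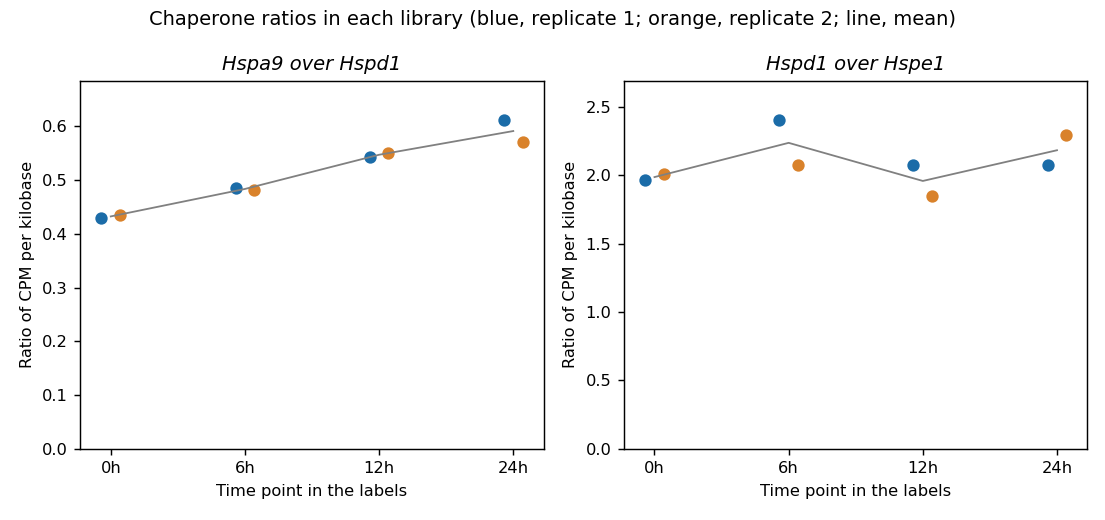
Ratios of levels per kilobase of exon for Hspa9 to Hspd1 and for Hspd1 to Hspe1, with 1 dot per library at 0h, 6h, 12h and 24h and a line through the means of the 2 libraries. Hspa9 to Hspd1 goes up at each time, with means of 0.432, 0.483, 0.547 and 0.591, while Hspd1 to Hspe1 has means between 1.96 and 2.24 with no such order.

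Lonp1 (ENSMUSG00000041168, chromosome 17, 56614297 to 56626887, minus strand), the AAA+ protease that clears oxidised and misfolded matrix proteins, was the tested gene of the set that the test over all times did not call. Its level was 155 and 158 CPM at 0h, 151 and 156 CPM at 6h, 142 and 147 CPM at 12h, and 163 and 150 CPM at 24h. The 0h range lay inside that of 24h, and the 12h libraries were below all others. Lonp1 fell by 0.12 ± 0.05 on the log2 scale at 12h against 0h (SE; adjusted p = 0.036), a call lost in 8 of 17 alternatives, and the adjusted p over all 4 times was 0.069. At 24h its log2 fold change was 0.01 ± 0.05 (adjusted p = 0.93). With GC content and gene length fitted, Lonp1 was instead called lower at 24h, with a log2 fold change of −0.13 with the overall level kept (adjusted p = 0.0052) and of −0.18 with the mean gene centred (adjusted p = 1.2e-04). Its sign at 24h turned in 8 of 17 alternatives, these among them, so no direction is given.

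Clpp (ENSMUSG00000002660, chromosome 17, 56990305 to 56996188, plus strand), the proteolytic chamber that works with the unfoldase CLPX, stood at 46.3 and 49.2 CPM at 0h, 45.4 and 44.9 CPM at 6h, 43.0 and 41.5 CPM at 12h, and 44.5 and 38.9 CPM at 24h. All later libraries were below both 0h libraries, the nearest by less than the gap between the 0h libraries. Clpp fell by 0.18 ± 0.06 on the log2 scale at 12h (SE; adjusted p = 0.025) and by 0.19 ± 0.06 at 24h (adjusted p = 0.011). The 12h call was lost in 5 of 17 alternatives, which were DESeq2 (adjusted p = 0.096), library totals (0.18) and the fits without replicate 2 of 0h (0.22) or without replicate 1 or 2 of 12h (0.051 and 0.15). The 24h call was lost when libraries were scaled by their totals, and also without replicate 2 of 0h or of 24h (adjusted p = 0.091, 0.13 and 0.25).

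Oma1 (ENSMUSG00000035069, chromosome 4, 103313812 to 103371868, plus strand), the stress-activated inner membrane protease, was measured at 29.6 and 28.0 CPM at 0h, 31.1 and 29.8 CPM at 6h, 27.4 and 26.9 CPM at 12h, and 25.4 and 24.3 CPM at 24h. The 6h libraries were the highest and the 24h libraries the lowest. It fell by 0.21 ± 0.07 on the log2 scale at 24h against 0h (SE; adjusted p = 0.014), and it was not called at 6h (log2 fold change 0.08) or 12h (−0.08). That 24h call was lost in 6 of 17 alternatives. With GC content and gene length fitted and the level kept, the log2 fold change at 24h was −0.0088 (adjusted p = 0.93), and it was also lost without replicate 1 of 0h or replicate 2 of 24h (adjusted p = 0.11 and 0.084).

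Afg3l2 (ENSMUSG00000024527, chromosome 18, 67404764 to 67449172, minus strand), the catalytic subunit of the m-AAA protease, had 125 and 130 CPM at 0h, 122 and 122 CPM at 6h, 116 and 112 CPM at 12h, and 120 and 114 CPM at 24h. Every later library was below both 0h libraries. It fell by 0.16 ± 0.05 on the log2 scale at 12h (SE; adjusted p = 0.0060) and by 0.12 ± 0.05 at 24h (adjusted p = 0.030). The 12h call was lost with library totals (adjusted p = 0.12) and without replicate 2 of 0h or of 12h (adjusted p = 0.096 and 0.085). The 24h call was lost in 5 of 17 alternatives, among them scaling by library totals (adjusted p = 0.34) and the fits without replicate 2 of 0h or of 24h (adjusted p = 0.22 and 0.23).

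**Figure D3:**
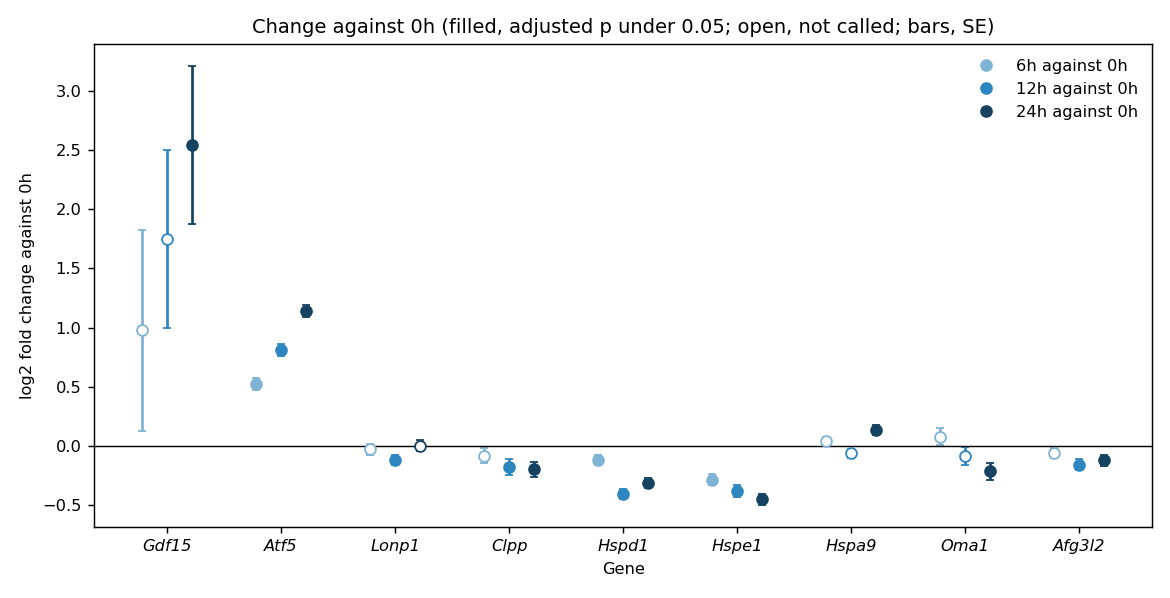
Log2 fold change of the 9 tested genes at 6h, 12h and 24h against 0h, with bars of 1 SE and filled marks for adjusted p under 0.05 in edgeR's quasi-likelihood test. Gdf15 and Atf5 lie above 0 at each time, Hspd1 and Hspe1 below it, and the 4 proteases and Hspa9 between −0.21 and 0.14.

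Successive times after 6h were also compared. At 12h against 6h, 2 were called, Atf5 higher and Hspd1 lower, beside 20.7% of all tested genes (10.9% higher, 9.79% lower). At 24h against 12h, 2 were called, Atf5 and Hspa9, both higher, beside 6.46% of all tested genes (3.41% higher, 3.04% lower). The test over all 4 times called 8 of the 9, beside 52.8% of all tested genes. Gdf15, which passed the filter through its 24h libraries alone, is among the 8 and adds no weight to that count.

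Levels of different genes were compared as CPM per kilobase of exon. At 0h the order was Hspd1 at 402, Hspe1 at 202, Hspa9 at 174, Clpp at 39.0, Lonp1 at 35.7, Atf5 at 35.4, Oma1 at 13.4, Afg3l2 at 12.9 and Gdf15 at 0.0509 CPM per kilobase, with Fgf21 at 0. The libraries of Lonp1 and Atf5 overlapped at 0h, and so did those of Oma1 and Afg3l2. At 24h Hspd1 was at 323, Hspa9 at 191, Hspe1 at 148 and Atf5 at 78.0 CPM per kilobase, so that Hspa9 stood above Hspe1 and Atf5 above both matrix proteases. Lonp1 at 35.9 and Clpp at 34.1 CPM per kilobase overlapped at 24h, as did Afg3l2 and Oma1, and Gdf15 and Fgf21.

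**Figure D4:**
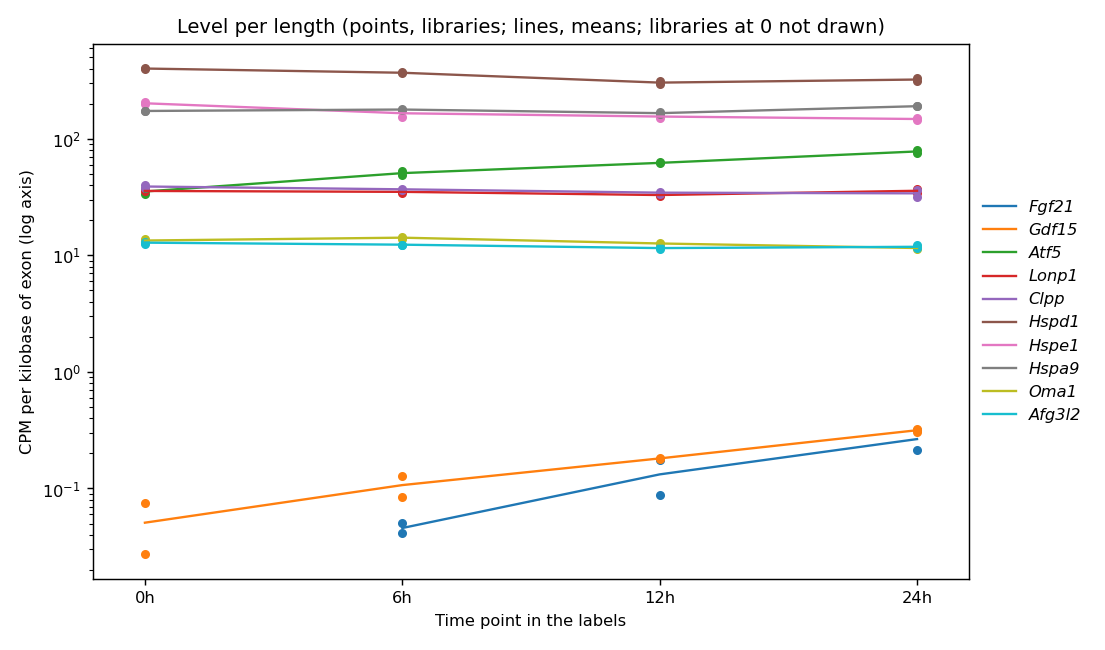
Level per kilobase of exon of the 10 genes (CPM per kilobase, log axis), with 1 dot per library at each of the 4 times and lines through the means. Libraries at 0 are not drawn. The 3 chaperone genes hold the top places at every time, Atf5 moves up the order, and the mitokines lie far below the rest.

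The other genes of the pathway were taken from lists by role, and each list is described by its counts at 24h against 0h. All 19 genes of the ATF4 arm rose at 6h, 12h and 24h, with median log2 fold changes of 0.47, 0.77 and 1.09. Of all tested genes, 9.74% were called higher at 6h, 22.1% at 12h and 26.1% at 24h. At 6h DESeq2 called 17 of the 19. Trib3, a pseudokinase that feeds back on ATF4, rose by 3.25 on the log2 scale at 24h (adjusted p = 1.1e-29), and Cth, the last enzyme of cysteine synthesis from methionine, by 3.38 (adjusted p = 4.0e-28). Pck2, the mitochondrial PEP carboxykinase, rose by 1.63 (adjusted p = 5.5e-26), and Slc7a11, the cystine transporter, by 2.62 (adjusted p = 6.5e-25). This list was drawn up with results of these libraries known, so its direction is no independent evidence.

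Of 7 genes for eIF2 kinases and phosphatase subunits and for eIF2 alpha, 4 rose and 3 fell at 24h, beside 26.1% higher and 24.8% lower among all tested genes. Ppp1r15a (GADD34), which restores translation by dephosphorylating eIF2 alpha, had a log2 fold change of 0.03 at 6h and rose by 1.44 at 12h and by 1.96 at 24h (adjusted p = 1.3e-18 at 24h). Ppp1r15b rose by 0.32 (adjusted p = 2.9e-08), while Eif2s1, which encodes eIF2 alpha itself, fell by 0.33 (adjusted p = 1.4e-08). Of the kinases, Eif2ak1, which encodes HRI, fell by 0.16 at 24h (adjusted p = 0.013), and Eif2ak2, which encodes PKR, by 0.26 (adjusted p = 5.2e-04). Eif2ak3, which encodes PERK, rose by 0.18 (adjusted p = 0.012) and Eif2ak4, which encodes GCN2, by 0.23 (adjusted p = 0.0011).

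Among 16 other mitochondrial proteases, 1 rose, 7 fell and 8 were not called at 24h, with a median log2 fold change of −0.10, beside 26.1% of all tested genes called higher and 24.8% lower. Parl, the inner membrane rhomboid protease, fell by 0.45 (adjusted p = 6.0e-11), Immp1l, a presequence peptidase of the inner membrane, by 0.54 (adjusted p = 1.1e-07), and Afg3l1, a paralog of Afg3l2 in the m-AAA complex, by 0.24 (adjusted p = 2.1e-05). Yme1l1, the protease that faces the intermembrane space, fell by 0.19 (adjusted p = 3.6e-04). Lactb was the gene that rose, by 0.19 (adjusted p = 0.0098).

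Of 10 partners and substrates of the inner membrane proteases, 1 rose, 5 fell and 4 were not called at 24h, where 26.1% of all tested genes were higher and 24.8% lower. The prohibitins Phb and Phb2, which ring the m-AAA protease, fell by 0.36 (adjusted p = 7.2e-09) and by 0.33 (adjusted p = 1.8e-07) on the log2 scale. Smdt1 (EMRE), the calcium uniporter subunit whose unassembled form AFG3L2 degrades, fell by 0.48 (adjusted p = 2.7e-10). Ghitm rose by 0.32 (adjusted p = 3.2e-08). Dele1, the OMA1 substrate that relays stress, had a log2 fold change of 0.02 at 24h (adjusted p = 0.80).

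Among 13 other mitochondrial chaperones and cofactors, 1 rose, 7 fell and 5 were not called at 24h, with a median of −0.19. The shares over all tested genes were 26.1% higher and 24.8% lower. Dnlz, a zinc finger protein that keeps HSPA9 soluble, fell by 0.57 (adjusted p = 2.4e-07), and Grpel1, the nucleotide exchange factor of HSPA9, by 0.27 (adjusted p = 7.7e-05). Ppif, the matrix cyclophilin D, fell by 0.32 (adjusted p = 5.7e-06) and Dnajc19, a J protein of the import motor, by 0.37 (adjusted p = 9.6e-06). Clpb rose by 0.20 (adjusted p = 0.0022). Trap1, the mitochondrial HSP90, had a log2 fold change of −0.06 (adjusted p = 0.26).

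**Figure D5:**
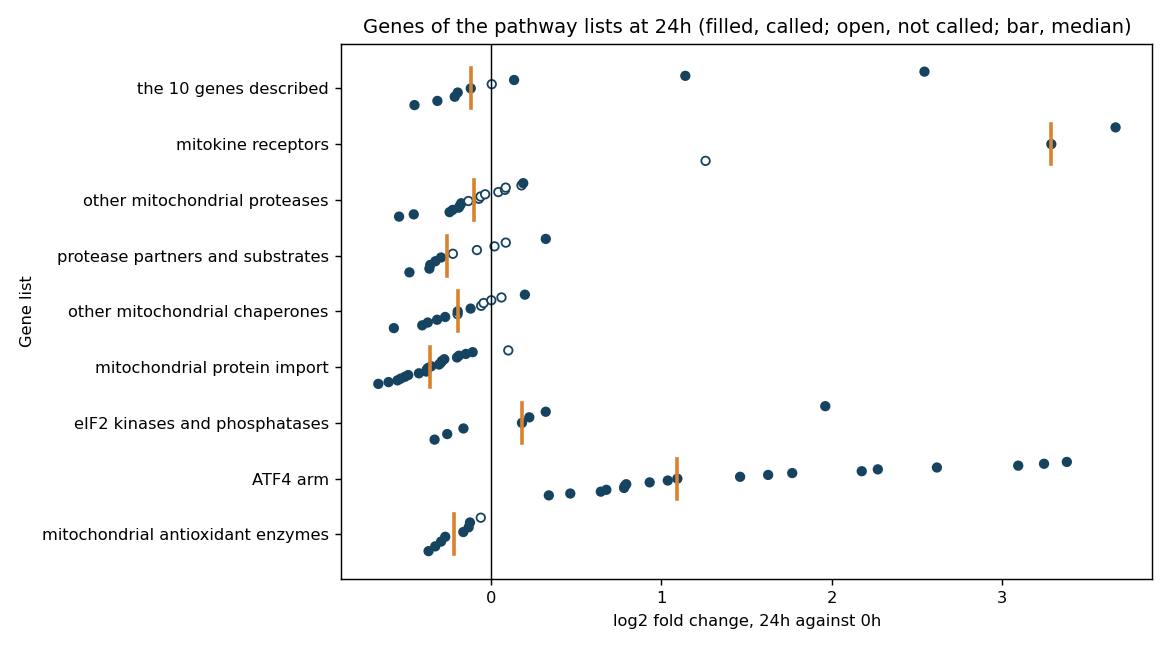
Log2 fold change at 24h against 0h of the 9 tested genes described and of each tested gene in 8 lists of the pathway, with 1 dot per gene, filled where the adjusted p was under 0.05, and a bar at the list's median. The 19 genes of the ATF4 arm all lie above 0 with a median of 1.09, while the medians of the other proteases, the partners and the other chaperones lie at −0.10, −0.26 and −0.19.

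For 4 of the 10 genes the most similar time profiles were looked up, by the root mean square distance over the 8 libraries between log2 CPM values centred on 0h. A prior count of 2 was added before taking logs, which flattens the profile of a gene with few counts. Candidates were tested genes with a mean log2 CPM of at least 3, without predicted gene models. The nearest to Atf5 were Cytip at 0.0505, Asns at 0.0533 and Mthfd2 at 0.0713 on the log2 scale. Asns, asparagine synthetase, and Mthfd2, a mitochondrial folate enzyme, are also on the ATF4 list. Nearest to Gdf15 were Slc7a7 at 0.183, P2rx3 at 0.232 and Stc2 at 0.251, and Gdf15 itself had at most 16 counts in a library. These neighbours rose by 1.70 to 1.74 on the log2 scale at 24h, against the fitted 2.54 of Gdf15. They thus match its flattened profile and not its fitted rise. The profile of Hspd1 was closest to Ncl at 0.0257, Nifk at 0.0309 and Thoc5 at 0.0316. Lonp1 had Snhg6 at 0.0280, Mrpl19 at 0.0281 and Taf6 at 0.0295 as its neighbours. Likeness over 8 libraries that share a time course is a description.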

How the data were processed

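The authors deposited raw counts per Ensembl gene, 1 table per library, whose making the submitters' processing notes credit to HTSeq 2.0.3, STAR and SAMtools 1.3, with mm10 as the build. Neither annotation release nor strand setting is given in the sources used here. Of 47069 identifiers, 46574 matched GENCODE M21. The 5 summary rows stayed out of all totals. Reads in no feature were 9.15% of the counted reads at 24h, against 5.47% at 0h.

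CPM were counts per 1000000 of each library's TMM-scaled gene total. Fold changes came from edgeR 4.0.16 in R 4.3.3 (TMM scaling, filterByExpr, quasi-likelihood F test, two-sided, all 8 libraries, 1 mean per time). The biological coefficient of variation was 3.10%. The pipeline was tested on simulated data. The members and lists were chosen with earlier results of these data known. All 10 members were named, as were up to 4 genes per list with the smallest adjusted p at 24h, genes called against their list, and a few of known role chosen after their values were seen. Alternatives were DESeq2 1.42.0, other scalings and filters, a GC and length correction, a replicate block and leaving out each library. No 2 libraries were identical.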

Additional observations from a re-analysis of the deposited data

How the results depend on the processing

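Of the 9 tested genes, scaling by library totals called 3 at 12h and 5 at 24h against 0h, in place of 6 and 8. Fitting GC content and length with the level kept called 5 at 6h in place of 3, and 4 at 12h against 6h in place of 2, where the fit with the mean gene centred called 5. DESeq2 and a stricter filter each called 5 over the time course in place of 8. Leaving out each library gave 2 to 3 calls at 6h, 3 to 6 at 12h (3 without replicate 2 of 0h or of 12h), 5 to 8 at 24h (5 without replicate 2 of 24h), 2 to 3 at 12h against 6h, 1 to 3 at 24h against 12h (1 without replicate 2 of 12h) and 6 to 9 over the time course. It gave 29 to 44, 60 to 75 and 67 to 76 list genes at 6h, 12h and 24h, in place of 42, 70 and 76. Of the genes' log2 fold changes under the alternatives, 681 kept direction and call, 42 lost the call, 15 gained one and 19 changed sign. For Lonp1 these were 0.0091 at 6h with library totals and, at 24h, −0.0028 with DESeq2, −0.0027 with its size factors, −0.00438 without a filter, −0.13 and −0.18 with GC content and length, and −0.0136, −0.00478 and −0.059 without replicate 1 of 0h, of 6h and of 24h, with 0.0596 at the other end of the leave-one-out range, without replicate 2 of 24h. For Clpp at 24h against 12h they were 0.017 and 0.011 with GC content and length, 0.0060 without replicate 1 of 12h and 0.074 without replicate 2 of 24h, and the range began at −0.12. For the rest they were 0.0025 for Hspe1 at 12h against 6h without replicate 2 of 6h (−0.19 without replicate 1), 0.00491 with library totals and 0.019 with GC content and length for Hspa9 at 12h, 0.093 and 0.046 with GC content and length for Oma1 at 12h, and −0.0027 for Afg3l2 at 24h against 12h without replicate 1 of 24h. The cause of these shifts was not tested. The sources used here do not say whether the replicate numbers pair the libraries. Deviations of same-numbered libraries correlated between −0.17 and 0.19, which with 2 libraries per time cannot settle it. A fit with the replicate block called 2, 6 and 8 of the genes at 6h, 12h and 24h, losing Hspd1 at 6h (adjusted p = 0.053), and 2 at 12h against 6h, 2 at 24h against 12h and 8 over the time course. DESeq2 called 1668 genes at 6h in place of 2613, and without replicate 2 of 0h 1319 were called. With library totals, 69.9% and 65.4% of calls were higher at 6h and 12h, in place of 53.2% and 50.6%, and 33.8% and 39.5% with GC content and length centred. Depth limits Fgf21 and Gdf15, at 13 and 30 counts at 24h.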

Other observations

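Genes of mitochondrial protein import, in which HSPA9 also acts and which precedes folding by HSPD1, were mostly lower. Of 20 tested import genes, none rose at 24h against 0h, 19 fell and 1 was not called, beside 24.8% of all tested genes called lower, with a median log2 fold change of −0.36. Chchd4, the oxidoreductase of the intermembrane space import route, averaged 75.4 CPM at 24h, against 119 CPM at 0h, and fell by 0.66 on the log2 scale (adjusted p = 6.8e-14). Tomm5 and Tomm22, subunits of the outer membrane translocase, fell by 0.60 (adjusted p = 1.7e-12) and by 0.48 (adjusted p = 4.4e-12). Samm50, which inserts beta-barrel proteins in the outer membrane, fell by 0.42 (adjusted p = 1.7e-10). At 6h 9 of the 20 had fallen and at 12h 18, beside 8.58% and 21.6% of all tested genes called lower.

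Of 8 mitochondrial antioxidant genes, 7 fell at 24h and 1 was not called, with a median of −0.21, beside 24.8% of all tested genes called lower. Txn2, mitochondrial thioredoxin, fell by 0.37 (adjusted p = 2.4e-08), its reductase Txnrd2 by 0.33 (adjusted p = 0.0012), the lipid peroxide reductase Gpx4 by 0.29 (adjusted p = 3.5e-06) and Glrx2 by 0.27 (adjusted p = 0.0048). Scaled by library totals, 4 of the 8 antioxidant genes and 16 of the 20 import genes fell at 24h, and without replicate 2 of 24h 4 of the antioxidant genes did.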
